A study of Mus musculus with 24 samples.

Results

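Long noncoding RNAs that stay in the nucleus were followed through neurons and glia of the mouse hippocampus at 24 h after the start of kainate-induced status epilepticus. The set held 8 genes, taken by name, namely Meg3, Rian, Mirg, Malat1, Neat1, Miat, Snhg11 and Pantr1. All 8 were found among the 53379 genes of the count table, and all 8 were among the 37598 genes with enough reads to be tested. In the GENCODE M21 annotation used here, 6 of them are lincRNAs and Rian is a processed transcript, while Snhg11 carries the type protein coding although its name and known role are those of a noncoding snoRNA host. Only nuclear RNA was sequenced, so the libraries hold no cytoplasmic value against which nuclear retention could be read.

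Only males of the strain C57/BL6N were used, which arrived 8 weeks old and had 4 weeks to settle in. Kainic acid (KA) was injected into the cortex beside the right hippocampus, and sham mice (SH) received saline by the same procedure. Every mouse of both groups had medetomidine and ketamine anaesthesia, its reversal by atipamezole, and buprenorphine, and KA mice without convulsive seizures were left out by the investigators. The 8 right hippocampi of each treatment were combined into 3 pools (replicate 1 from 4 mice, replicates 2 and 3 from 2 mice each). Sorting split the nuclei of a pool into NeuN+ nuclei (called neurons) and NeuN- nuclei (called glia, a gate that can also hold pericytes and endothelial cells), which gave 12 libraries, 3 per group, that is KA neurons, SH neurons, KA glia and SH glia. RNA was primed with oligo(dT) and amplified. SH glia 1 and KA glia 2 started from about 0.05 ng of RNA with 15 PCR cycles in place of 1 ng and 10 cycles.

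Some nuclear long noncoding RNAs act within the nucleus, for example as scaffolds of nuclear bodies or near their own genes. Malat1 sits in nuclear speckles, the stores of splicing factors, and Neat1 is the scaffold of paraspeckles, which are built around it together with RNA-binding proteins such as SFPQ, NONO and PSPC1. Miat (also called Gomafu) forms its own nuclear dots and carries repeats of the branch point motif that splicing factor SF1 binds. Meg3, Rian and Mirg are expressed from the maternal chromosome of the imprinted Dlk1-Dio3 domain, where Rian hosts C/D box snoRNAs and Mirg hosts microRNAs. Snhg11 hosts a snoRNA, and Pantr1 lies beside the neural transcription factor gene Pou3f3.

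Library totals ranged from 7769400 to 40364768 counts. All levels are given in counts per 1000000 counts of the library (CPM), scaled by TMM, a factor per library that evens out differences in RNA composition, and fold changes are on the log2 scale with their standard error (SE). The sort was visible in the markers. Of 15 neuron markers, 14 were higher in neurons, and 10 of 10 astrocyte, 9 of 10 microglia, 8 of 8 oligodendrocyte and 5 of 5 oligodendrocyte precursor markers were higher in glia (edgeR quasi-likelihood test, false discovery rate, FDR, below 0.05). The summed neuron markers stood at 5635 to 9115 CPM in neurons and still at 492 to 1887 CPM in glia. With pooled nuclei, fewer cells of a type and less RNA per cell cannot be told apart.

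Sequence features of these RNAs were read from the GENCODE M21 transcripts, taking the longest transcript of each gene. The motif TACTAAC, read on the sense strand, occurred 6 times in the 9163 bases of Miat, once in Neat1 and in none of the other 6 members. Among 19565 genes with a longest transcript of at least 2000 bases, 9.72% held the motif at all and only 2, Miat included, held it 6 times or more. Counts favour long transcripts, and per kilobase 13 of these genes, Miat included, reached the 0.655 sites of Miat. The stretch of Miat with the most sites is shown with the motif in capitals.
Miat, bases 4873 to 5072 of its longest transcript: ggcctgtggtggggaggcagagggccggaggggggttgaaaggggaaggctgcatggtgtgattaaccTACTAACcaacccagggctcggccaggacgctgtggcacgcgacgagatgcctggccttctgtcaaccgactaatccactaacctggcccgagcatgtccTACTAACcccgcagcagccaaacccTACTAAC
The longest run of A in Malat1 is 12 bases long and is the only run of 10 or more A in that transcript. It is shown because the tract belongs to the known 3′ end of mature Malat1, a triple helix that takes the place of a poly(A) tail, and because the libraries were primed with oligo(dT). The run is in capitals.
Malat1, bases 6644 to 6715 of its longest transcript: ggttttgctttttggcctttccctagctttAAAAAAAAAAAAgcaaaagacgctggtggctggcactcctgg
Meg3 held 6 runs of 10 or more A and Rian 1, while Mirg, Neat1, Miat, Snhg11 and Pantr1 held none. Levels that rest on oligo(dT) priming are therefore compared for 1 gene across libraries in what follows, and between genes only per length and as a description.

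Promoters of 6 of the 8 members are in the RefSeq table for GRCm38.p6, each 300 bases long with 250 before and 50 after the start. Neat1 and Pantr1 have no entry. They were searched on both strands for the cAMP response element TGACGTCA, its half-site TGACG (which lies within the full element), the AP-1 site TGANTCA and the TATA box letters TATAAA, since seizures are known to drive the factors that bind the first 3. Of all 32851 promoters in the table, 1.79% held TGACGTCA, 20.8% TGACG, 7.81% TGANTCA and 13.6% TATAAA. The Meg3 promoter held 1 TGACGTCA and the TATA letters, and Malat1 held 3 half-sites and no full element. The windows of Rian, Mirg, Miat and Snhg11 and of the second Meg3 start held none of the 4 motifs. These are matches of letters in this window only. The Mirg and Miat windows lie inside those genes as annotated in GENCODE M21, so the outermost 5′ ends given there were not searched. The promoters of Meg3, Malat1 and Miat are shown, with the matches in capitals, as the most abundant member of the imprinted domain, the speckle RNA and the RNA with the TACTAAC repeats.
Meg3 promoter, chr12:109540746-109541045, plus strand: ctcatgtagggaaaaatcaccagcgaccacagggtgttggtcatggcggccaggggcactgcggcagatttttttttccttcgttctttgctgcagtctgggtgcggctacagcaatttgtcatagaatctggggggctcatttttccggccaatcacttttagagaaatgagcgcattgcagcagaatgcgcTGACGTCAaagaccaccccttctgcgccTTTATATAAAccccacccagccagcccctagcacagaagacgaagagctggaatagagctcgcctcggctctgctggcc
Malat1 promoter, chr19:5802623-5802922, minus strand: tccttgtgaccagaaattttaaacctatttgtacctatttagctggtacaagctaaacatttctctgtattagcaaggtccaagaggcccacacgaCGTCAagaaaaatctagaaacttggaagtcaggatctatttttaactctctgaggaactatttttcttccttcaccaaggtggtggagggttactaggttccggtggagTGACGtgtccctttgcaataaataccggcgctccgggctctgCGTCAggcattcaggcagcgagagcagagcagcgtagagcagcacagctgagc
Miat promoter, chr5:112228899-112229198, minus strand: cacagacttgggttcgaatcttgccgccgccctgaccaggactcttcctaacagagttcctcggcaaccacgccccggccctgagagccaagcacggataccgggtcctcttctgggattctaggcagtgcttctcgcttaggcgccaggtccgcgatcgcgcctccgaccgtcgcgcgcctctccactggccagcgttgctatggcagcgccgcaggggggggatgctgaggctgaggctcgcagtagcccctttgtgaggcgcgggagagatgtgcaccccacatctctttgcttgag

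Snhg11 and Meg3 were the most abundant members in neurons. Per kilobase of annotated exon, SH neurons held Snhg11 at 1610 CPM per kb (range 1219 to 2143), Meg3 at 532 (370 to 779), Malat1 at 506 (315 to 874), Miat at 104 (61.3 to 155), Rian at 19.3, Mirg at 11.2, Neat1 at 4.33 and Pantr1 at 2.97. The ranges of Meg3 and Malat1 overlapped, as did those of each neighbouring pair from Rian down to Pantr1. In SH glia the order was led by Malat1 at 542 CPM per kb (212 to 1115), followed by Snhg11 at 199 (80.0 to 301) and Neat1 at 123 (53.6 to 243), and these ranges overlapped. Meg3 at 54.2, Miat at 13.0, Pantr1 at 3.43, Rian at 3.04 and Mirg at 1.55 followed, and Rian and Mirg alone of these neighbours did not overlap. In KA neurons Snhg11 again led at 1283 CPM per kb and in KA glia Malat1 at 433.

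Together the 8 members held 2.08 to 2.82% of all counts in neurons (mean 2.46% ± 0.286, SD, n = 6) and 0.723 to 1.16% in glia (0.955% ± 0.161, SD, n = 6). The neurons of a pool held on average 1.5 percentage points more than its glia, in 6 of 6 pools. Flipping the signs of the 6 differences gave an exact two-sided p of 0.0312, which is as low as 6 pools can reach. Between KA and SH the share differed by 0.261 percentage points in neurons (exact two-sided permutation test, p = 0.3) and by 0.0275 in glia (p = 1 in the same exact test), where 3 pools against 3 cannot give a p below 0.1.

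**Figure D1:**
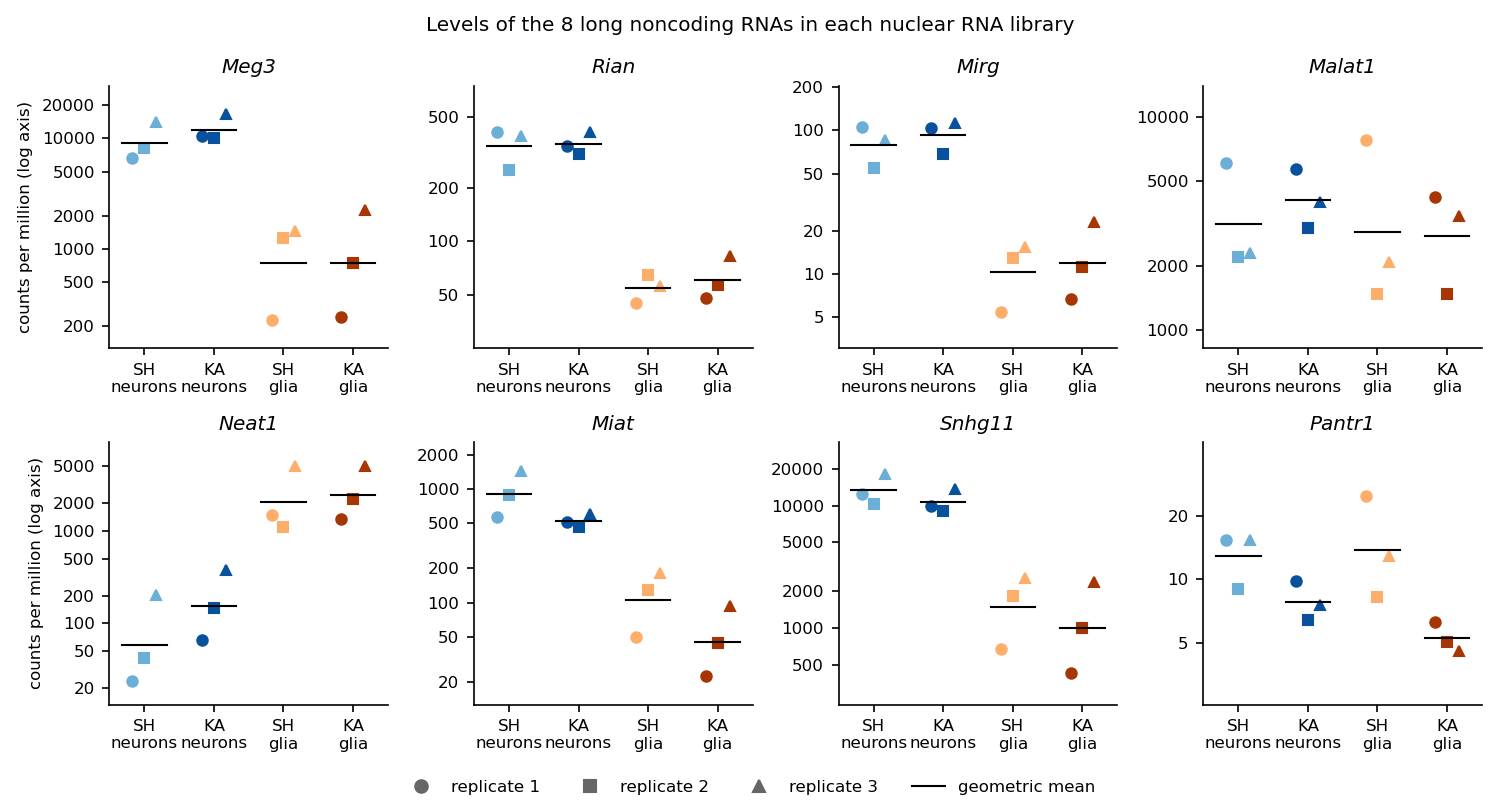
TMM-scaled CPM (vertical log axes) of each long noncoding RNA in the 12 libraries, by group on the horizontal axis. Points are single pools, shaped by replicate number, and black lines are geometric means. Meg3, Rian, Mirg, Miat and Snhg11 sit higher in all neuron libraries than in any glia library, Neat1 sits lower, and Malat1 and Pantr1 overlap between the cell types.

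Neurons and glia differed in 6 of the 8 members over both treatments. Meg3, Rian, Mirg, Miat and Snhg11 were higher in neurons, Neat1 was higher in glia, and Malat1 and Pantr1 did not pass the test (edgeR quasi-likelihood test, FDR below 0.05). Of all genes tested, 11.6% were called higher in neurons and 6.91% higher in glia. The median log2 fold change of the 8 members was 2.70, beside -0.15 over all genes tested. The same 6 members were called in the SH pools, where 10.7% of genes were called, and in the KA pools, where 9.86% were, although these comparisons share their libraries with the first. Within a treatment, the calls of Meg3 and Snhg11 were lost without both low-input libraries (FDR 0.225 and 0.244 in SH, 0.122 and 0.152 in KA), as was that of Miat in SH (0.087).

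Meg3, a maternally expressed RNA with tumour suppressor activity, stood at 6684, 8110 and 14100 CPM in SH neurons and at 10413, 10009 and 16568 CPM in KA neurons. In glia it stood at 226, 1262 and 1454 CPM in SH and at 240, 751 and 2223 CPM in KA. Every neuron library thus held more Meg3 than any glia library, and replicate 3 held the most in all 4 groups. The difference was 3.41 ± 0.63 (SE) on the log2 scale, or 10.6-fold (FDR 7.04e-04), and ranged from 6.43-fold in SH pool 2 to 43.4-fold in KA pool 1.

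Rian, the snoRNA host of the same domain, stood at 413, 252 and 391 CPM in SH neurons and 341, 309 and 411 CPM in KA neurons, against 45.3, 64.8 and 56.4 CPM in SH glia and 48.2, 56.7 and 82.5 CPM in KA glia. It was the most even of the domain's RNAs between pools, with 3.90-fold to 9.12-fold more in neurons and a log2 difference of 2.58 ± 0.27 (SE, FDR 5.48e-06). Mirg, the microRNA host, stood at 54.5 to 113 CPM in the 6 neuron libraries (median 94.8) and at 5.47 to 23.1 CPM in the 6 glia libraries (median 12). Its groups did not overlap, and the difference was 2.82 ± 0.35 (SE, FDR 2.05e-05).

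The hairpins of 7 microRNAs lie for at least 50 bases within exons of Meg3 or Mirg, and reads that touch such a hairpin count for neither gene. RefSeq gives 12 mature microRNAs for them, no 2 of which share a seed. Those of Meg3 and Mirg below are printed 5′ to 3′ in GRCm38.p6 with the seed, bases 2 to 8, in capitals, since they are the known products of transcripts that the counts measure only as hosts.
mmu-miR-770-5p, chr12:109563710-109563731, plus strand: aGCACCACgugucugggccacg
mmu-miR-134-5p, chr12:109734145-109734166, plus strand: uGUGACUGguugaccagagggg
mmu-miR-485-3p, chr12:109734946-109734967, plus strand: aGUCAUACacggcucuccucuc
mmu-miR-377-3p, chr12:109740553-109740574, plus strand: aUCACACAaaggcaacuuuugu
mmu-miR-410-3p, chr12:109743764-109743784, plus strand: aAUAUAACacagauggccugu

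Part of the rest of the Dlk1-Dio3 domain was also higher in neurons. Of 115 other annotated genes between Dlk1 and Dio3, most of them microRNAs and snoRNAs, 46 could be tested. Over both treatments 17 of the 46 were higher in neurons, 0 were higher in glia and the rest did not pass the test. Of all genes tested, 11.6% were called higher in neurons and 6.91% higher in glia. The median log2 fold change of the 46 was 1.73, beside -0.15 over all genes. Examples with the smallest p were Gm37899 with 2.19 ± 0.26 (SE), B830012L14Rik with 1.97 ± 0.27 and Rtl1, the paternally expressed retrotransposon-like gene, with 2.00 ± 0.44. Rtl1 lies on the minus strand, opposite to Meg3 and Rian. Reads were counted without strand, so the counts do not show which strand of Rtl1 they came from. Dio3, the thyroid hormone inactivating deiodinase, was also higher in neurons with 2.45 ± 0.73 (FDR 0.0249), and Dlk1, the Notch ligand relative at the other end, differed by 0.37 ± 0.35 (FDR 0.588). The 18 microRNA genes of the span that were tested did not exceed 3.61 CPM in any library, so these are low counts.

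Miat stood at 569, 883 and 1436 CPM in SH neurons and 518, 462 and 605 CPM in KA neurons, against 49.5, 130 and 184 CPM in SH glia and 22.8, 44.4 and 92.8 CPM in KA glia. All neuron libraries were above all glia libraries, and the difference was 3.15 ± 0.42 (SE, 8.87-fold, FDR 4.67e-05). Of Miat's exon bases, 24.3% also lie in exons of the opposite-strand gene Gm26953, and unstranded counting drops reads from that stretch. Gm26953 itself stood at means of 8.41 CPM in KA neurons and 10.5 CPM in SH neurons and was higher in neurons too, by 1.97 ± 0.34 (FDR 4.34e-04). Snhg11 stood at 9063 to 18257 CPM in the 6 neuron libraries (median 11453) and 429 to 2561 CPM in the 6 glia libraries (median 1420), again without overlap (3.06 ± 0.55, SE, FDR 5.26e-04).

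The contrasts of Meg3, Mirg and Snhg11 were widest in the pools where that of the neuron markers was widest. The summed neuron markers were 11.4-fold higher in neurons in KA pool 1 and 8.87-fold in SH pool 1, but 3.61-fold to 6.43-fold in the other 4 pools. Meg3 was 43.4-fold and 29.6-fold higher in those first pools and 6.43-fold to 13.3-fold in the others. Snhg11 was 23.3-fold and 18.4-fold higher, against 5.66-fold to 9.03-fold, and Mirg 15.5-fold and 19.2-fold, against 4.24-fold to 6.12-fold. For Rian (7.07-fold and 9.12-fold, against 3.90-fold to 6.94-fold) and Miat (22.7-fold and 11.5-fold, against 6.52-fold to 10.4-fold) the lower of the first pools lay close to the other 4. How far neuronal RNA among the NeuN- nuclei sets the glial levels of these members was not tested.

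Neat1 ran the other way. It stood at 23.9, 42.1 and 204 CPM in SH neurons and 65.9, 146 and 380 CPM in KA neurons, and at 1484, 1113 and 5042 CPM in SH glia and 1341, 2226 and 5000 CPM in KA glia. Glia held more in 6 of 6 pools, by 13.2-fold to 62.1-fold, and the fitted difference was -4.34 ± 0.68 (SE, 20.2-fold, FDR 1.72e-04). Its short and long forms share their 5′ end and lie in a single exon block of 20771 bases, so the counts do not separate them. The libraries were primed with oligo(dT), and how far each form was captured was not tested. The counts are therefore not a measure of the paraspeckle scaffold.

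Malat1 stood at 6105, 2198 and 2291 CPM in SH neurons, 5669, 3021 and 3992 CPM in KA neurons, 7784, 1477 and 2091 CPM in SH glia and 4195, 1469 and 3414 CPM in KA glia. The cell types overlapped, with a difference of 0.19 ± 0.50 (SE, FDR 0.859), and the replicate 1 library was the highest of its group in all 4 groups. Pantr1 stood at 6.42 to 15.4 CPM in neurons and 4.57 to 24.8 CPM in glia, with a difference of 0.19 ± 0.30 (FDR 0.762). For both RNAs the sign of this small difference turned with the scaling (-0.17 for Malat1 and -0.24 for Pantr1 with library totals alone), a change that also moved the median of all genes from -0.15 to -0.59. Neither value passed the test under either scaling.

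**Figure D2:**
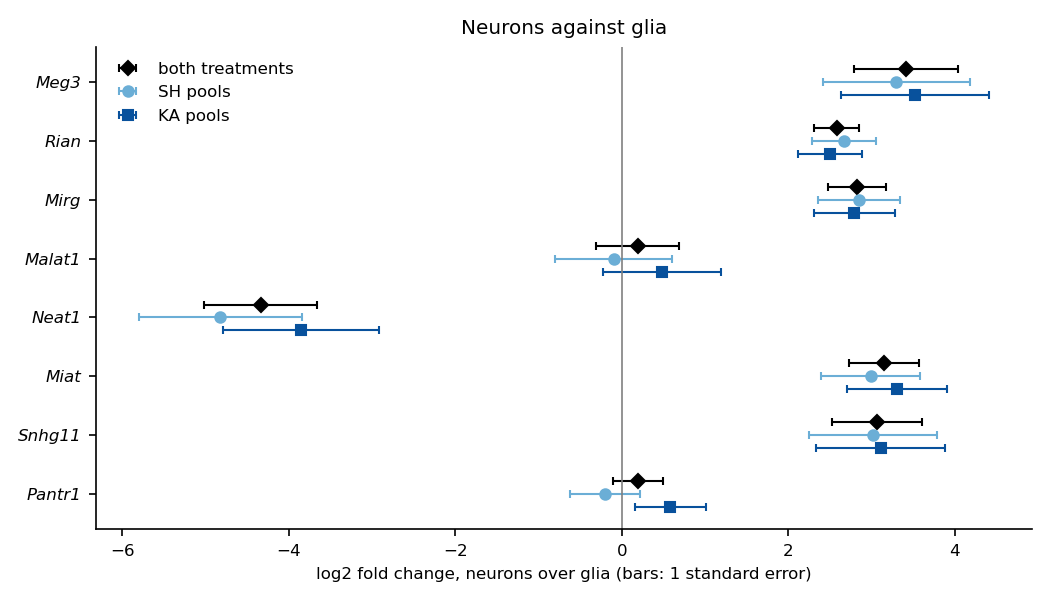
Log2 fold change of neurons over glia (horizontal axis) for each RNA, with bars of 1 standard error, over both treatments (diamonds), in the SH pools (circles) and in the KA pools (squares). For 5 RNAs the values lie between 2.50 and 3.52, Neat1 lies between -4.82 and -3.86, and the bars of Malat1 cross 0.

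Neighbouring genes did not share these patterns throughout. Frmd8, which lies 4224 bases from Neat1, was higher in glia like Neat1 (-3.13 ± 0.31, FDR 3.57e-06). Cryba4 beside Miat was higher in glia (-3.18 ± 0.73, FDR 0.00423) at 0.190 to 3.24 CPM in the group means, opposite to Miat. Lbp and Ralgapb on either side of Snhg11 differed by -0.72 ± 0.60 and 0.47 ± 0.27 and did not pass the test. Pou3f3, whose gene starts 926 bases from Pantr1, differed by -0.71 ± 0.25 (FDR 0.0638), and Tmem182, the coding gene on the far side, by -0.75 ± 0.66. Gm26897, the coding gene on the far side of Miat, had too few reads to be tested.

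The genes most like each member across the 12 libraries were taken by the smallest root mean square difference in centred log2 CPM among 12093 other genes. Meg3 was closest to Trank1 (0.14) and Rin1 (0.28), and Miat to Fcho1 (0.19) and Camk2b (0.24). Snhg11 was closest to Dbn1 (0.19) and Celf5 (0.20), Rian to A230103L15Rik (0.18) and Ociad2 (0.19), and Mirg to Epha7 (0.27) and Syt5 (0.27). Neat1 was closest to Sec14l5 (0.41) and Tmem88b (0.45), Malat1 to Chchd1 (0.34) and Gm15710 (0.35), and Pantr1 to Enho (0.31) and Reep5 (0.32). Among the members themselves, Miat and Snhg11 were the closest pair (0.37) and Rian and Mirg the next (0.39).

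KA against SH was a smaller contrast than the cell type. In neurons 0 of 8 members passed an FDR of 0.25, the threshold of the study, where 0.34% of all genes did, and 0 of 8 had an unadjusted p below 0.05 (edgeR quasi-likelihood test), and DESeq2 called 0 as well, where it called 1.21% of all genes. In glia 0 of 8 passed, where 0.747% of all genes did, with 1 of 8 at an unadjusted p below 0.05, and DESeq2 called 1, Pantr1, where it called 2.69% of all genes. The study's own edgeR analysis, which treated glia separately, listed Pantr1 as lower in KA glia at this threshold. A separate edgeR fit of the glia libraries here did not call it. For no member was the KA effect shown to differ between neurons and glia. With edgeR 0 of 8 passed an FDR of 0.25 or had an unadjusted p below 0.05, and DESeq2 called 0. Of all genes, 0% were called by edgeR and 0.104% by DESeq2. The standard error of this difference reached 1.19 (Neat1, 0.97 ± 1.19 with edgeR). The members' median log2 fold change was 0.11 in neurons and -0.10 in glia, beside 0.00 and 0.14 over all genes.

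For some members the replicate numbers lay far apart. On the log2 scale, Meg3 in glia ranged over 2.95 between the means of the 3 replicate numbers, and Neat1 in neurons over 2.81. Libraries of the same number deviated together, as processing describes, so a second fit that blocks on this number is given beside each result whose call it changes. With the block, 3.05% of all genes were called in neurons, 7.64% in glia and 0.402% for the difference between them.

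With the block, Neat1 and Miat were called in neurons, Miat and Pantr1 in glia, and none of the 8 for the difference between cell types. In this fit Neat1 was higher in KA neurons, and Miat was lower in KA neurons and KA glia. Without the block neither gene was called. These calls rest on the differences within each replicate number, since the KA and SH libraries overlapped for Neat1 and Miat. The KA and SH libraries did not overlap for 0 of 8 members in neurons, where 9.72% of all genes did not, and for 1 of 8, Pantr1, in glia, where 6.61% did not.

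**Figure D3:**
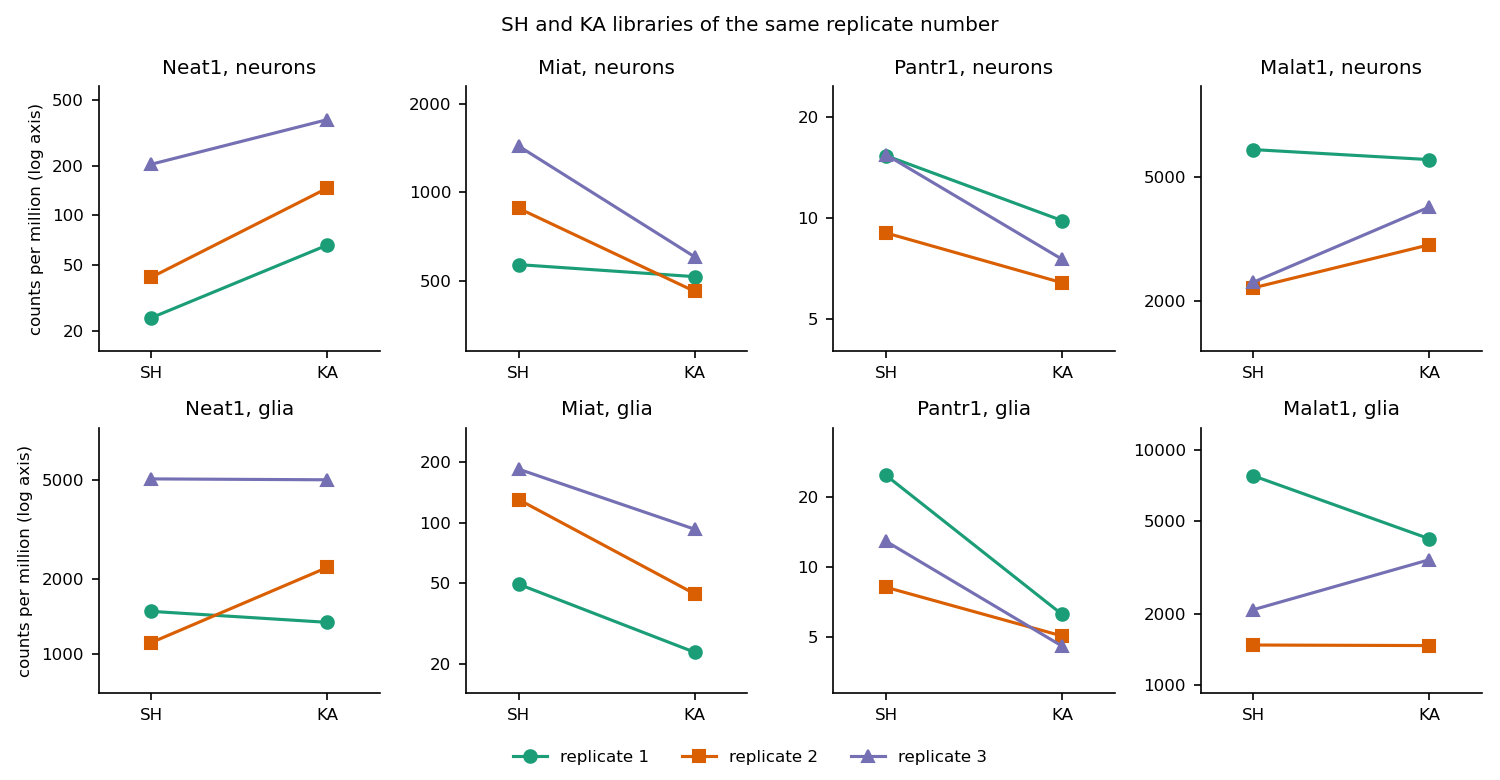
CPM (vertical log axes) of Neat1, Miat, Pantr1 and Malat1 in SH and KA libraries, neurons above and glia below, with lines joining libraries of the same replicate number. All 3 lines rise for Neat1 in neurons and fall for Miat and Pantr1 in both cell types, while the lines of Malat1 and of Neat1 in glia go both ways.

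Neat1 in neurons went from 23.9 to 65.9 CPM in replicate 1, from 42.1 to 146 CPM in replicate 2 and from 204 to 380 CPM in replicate 3. KA was higher in 3 of 3 numbers, by 1.87-fold to 3.46-fold, although SH replicate 3 lay above KA replicates 1 and 2. The difference was 1.13 ± 0.85 (SE, FDR 1) without the block and 1.38 ± 0.26 (FDR 0.00909) with it, and the blocked call held without each replicate number in turn (1.18 to 1.63). Without the block, the value rested on single libraries, at 0.24 without KA neurons 3 and 2.58 without SH neurons 3, and was called in neither. In glia Neat1 was higher in 1 of 3 numbers (0.17 ± 0.84 without the block, 0.28 ± 0.26 with it, FDR 0.736). The difference between the cell types was 1.11 ± 0.37 with the block (FDR 0.589), so the effect in neurons was not shown to differ from that in glia, although leaving out replicate 2 (1.26, FDR 0.178) or both low-input libraries (1.55, FDR 0.178) brought it past the threshold. The summed markers of the glial types in the neuron libraries were 470 ± 286 CPM in KA and 393 ± 261 CPM in SH for astrocytes, 81.5 ± 33.2 and 82.4 ± 27.0 CPM for microglia, and 310 ± 224 and 505 ± 422 CPM for oligodendrocytes (SD, n = 3). With the block, 2 of 10 astrocyte markers were higher and 1 lower in KA neurons, 1 of 8 oligodendrocyte markers was lower and none of 10 microglia markers was called. Their part in the Neat1 levels was not tested.

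None of 16 genes for paraspeckle proteins passed the test between KA and SH in either cell type, with or without the block (median log2 fold change -0.23 in neurons and -0.12 in glia without it). Between neurons and glia none was called without a block, and with the pool as a block, where 19.7% of all genes were called higher in neurons and 9.84% higher in glia, 6 were higher in neurons and 2 higher in glia, among them Pspc1 (0.69 ± 0.17), Tardbp (0.73 ± 0.18) and Sfpq (0.69 ± 0.19) in neurons and Hnrnpf (-0.81 ± 0.14) and Rbm14 (-0.45 ± 0.15) in glia. Of 20 genes for nuclear speckle and SR proteins, 0 were called for KA without the block, and with it 1 fell in glia, Clk1, a kinase of SR proteins (-0.89 ± 0.30, FDR 0.154). Rnps1 alone was higher in neurons (1.41 ± 0.25, FDR 5.98e-04), and with the pool as a block 8 of 20 were, beside the 19.7% of all genes.

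Miat went from 569 to 518 CPM in replicate 1 of the neurons, from 883 to 462 CPM in replicate 2 and from 1436 to 605 CPM in replicate 3, and KA was lower in 3 of 3 numbers by 1.10-fold to 2.38-fold. The difference was -0.87 ± 0.56 (SE, FDR 1) without the block and -0.78 ± 0.25 (FDR 0.2) with it. That blocked call was lost without replicate 2 (-0.69, FDR 0.271) and without replicate 3 (-0.54, FDR 1). In glia Miat went from 49.5 to 22.8, from 130 to 44.4 and from 184 to 92.8 CPM, lower in 3 of 3 numbers by 1.98-fold to 2.93-fold. The difference was -1.18 ± 0.56 (FDR 1) without the block and -1.22 ± 0.25 (FDR 0.00932) with it, and the blocked call held without each replicate number in turn (-1.05 to -1.37) and without both low-input libraries (-1.15, FDR 0.191). Without the block the value was -1.86 without KA glia 3, again not called. The difference between the cell types was 0.44 ± 0.35 with the block (FDR 1).

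Of the 4 genes for proteins known to bind Miat, 0 were called for KA without the block, and with it Qk, the glial splicing regulator, fell in glia (-0.77 ± 0.23, FDR 0.0886). Between cell types Celf3 was higher in neurons (2.64 ± 0.34) and Qk higher in glia (-2.64 ± 0.37). Neuron markers in the glia libraries summed to 492 to 1687 CPM in KA and 646 to 1887 CPM in SH, and 1 of 15 was called lower in KA glia (3 with the block). Their part in the lower Miat in glia was not tested.

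Pantr1 was the least abundant member per kilobase in every group but SH glia, and among the members only its glia libraries separated KA from SH. In glia it went from 24.8 to 6.26 CPM in replicate 1, from 8.18 to 5.05 CPM in replicate 2 and from 12.9 to 4.57 CPM in replicate 3, so that all SH values lay above all KA values. The difference was -1.53 ± 0.43 (SE, 2.89-fold lower, FDR 0.297) without the block, just outside the threshold at which the study itself listed Pantr1 as lower. Still without the block, it was -0.87 without the low-input library SH glia 1 and -1.84 (FDR 0.117) without SH glia 2. It was -1.39 ± 0.34 (FDR 0.0332) with the block. The blocked call was lost without replicate 3 (-1.34, FDR 0.448). In neurons Pantr1 went from 15.3 to 9.82, from 9.02 to 6.42 and from 15.4 to 7.54 CPM, and the difference was -0.74 ± 0.43 without the block and -0.72 ± 0.33 with it (FDR 0.585). The difference between cell types was 0.67 ± 0.47 with the block (FDR 1). Pou3f3 beside it differed by -0.59 ± 0.36 in glia and -0.05 ± 0.36 in neurons (FDR 1 in both).

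Glial markers moved in the same libraries. The summed oligodendrocyte precursor markers were 580 to 897 CPM in KA glia and 1446 to 2511 CPM in SH glia, with 1 of 5 called lower (4 of 5 with the block), and the oligodendrocyte markers 6490 to 12206 and 11980 to 25012 CPM, with 0 of 8 called (4 of 8 lower with the block). Astrocyte markers stood at 1314 to 2438 and 2164 to 3046 CPM, with 1 of 10 called lower (6 lower and 1 higher with the block), and microglia markers at 851 to 1823 and 1104 to 2559 CPM, with 1 of 10 lower (2 with the block). Endothelial markers stood at 20.6 to 65.0 and 14.4 to 47.9 CPM, and pericyte markers at 30.5 to 74.8 and 61.5 to 121 CPM, with none of 7 and 5 called (1 higher and 1 lower with the block). The part of cell composition in the lower Pantr1 was not tested.

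**Figure D4:**
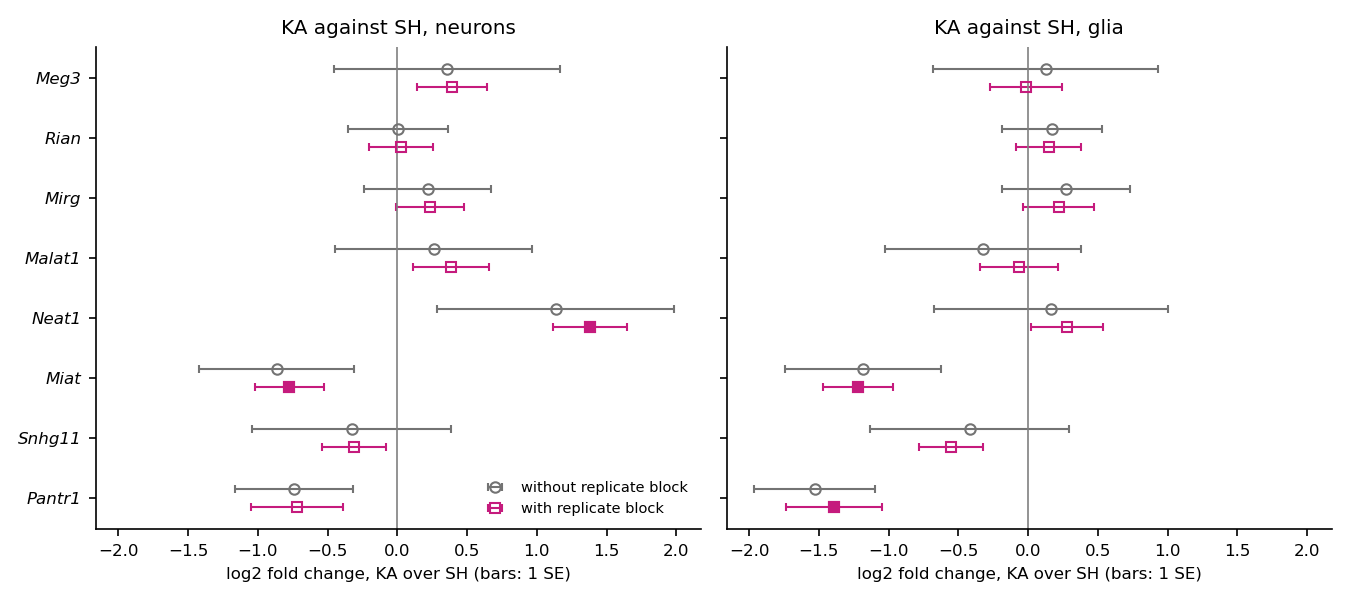
Log2 fold change of KA over SH (horizontal axes) in neurons and in glia, with bars of 1 standard error, from the fit without (circles) and with (squares) the replicate block. Filled symbols pass an FDR of 0.25. They are Neat1 (1.38) and Miat (-0.78) in neurons and Miat (-1.22) and Pantr1 (-1.39) in glia, all with the block.

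The other 5 members did not pass the test between KA and SH in either fit. Meg3 differed by 0.36 ± 0.81 in neurons and 0.13 ± 0.81 in glia, and by 0.39 ± 0.25 and -0.02 ± 0.26 with the block. Rian differed by 0.01 ± 0.36 and 0.17 ± 0.36, and Mirg by 0.22 ± 0.45 and 0.27 ± 0.46, in neurons and glia. Snhg11 differed by -0.33 ± 0.71 in neurons and -0.42 ± 0.71 in glia, and by -0.55 ± 0.23 in glia with the block (FDR 0.289), outside the threshold. Malat1 differed by 0.26 ± 0.71 and -0.32 ± 0.71, with KA above SH in 2 of 3 numbers in neurons and 1 of 3 in glia. The unblocked standard errors of these 5 members ran from 0.36 to 0.81, and a p that misses the threshold does not show that the levels were equal. Of the 46 other genes tested in the Dlk1-Dio3 span, 0 were called for KA in either cell type, with or without the block (edgeR). Dlk1 differed by 0.90 ± 0.49 in neurons and Dio3 by -1.03 ± 0.98.

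Other noncoding RNAs give the frame. Of 15 tested snoRNA host genes, Snhg15 alone rose in KA glia (1.57 ± 0.39, FDR 0.189), and with the block 6 did, led by Snhg15, Zfas1 (1.37 ± 0.32) and Snhg17 (0.85 ± 0.25), while none was called in neurons in either fit. Of all genes, 0.747% were called in KA glia in either direction without the block and 7.64% with it. Snhg14 (2.07 ± 0.26) and Snhg10 (1.43 ± 0.32) were higher in neurons than in glia, as Snhg11 was, and with the pool as a block 7 of 15 were, beside 19.7% of all genes. Of 19 other brain long noncoding RNAs tested, 8 were higher in neurons, led by A330008L17Rik (2.81 ± 0.32), Mir124a-1hg (3.20 ± 0.45) and Dlx6os1 (2.26 ± 0.33), and 4 higher in glia, led by Sox2ot (-2.87 ± 0.40), 2810468N07Rik (-2.41 ± 0.38) and Pantr2 (-1.94 ± 0.32), which shares a locus name with Pantr1. In the same fit 11.6% of all genes were called higher in neurons and 6.91% higher in glia. Between KA and SH, 2810468N07Rik fell in glia (-2.12 ± 0.52, FDR 0.177). With the block Mir22hg rose in neurons (1.07 ± 0.31, FDR 0.125), Pvt1 (2.00 ± 0.32, FDR 0.00149) and Mir22hg (0.92 ± 0.32) rose in glia, and 2810468N07Rik, Mir124a-1hg (-0.77 ± 0.25) and Pantr2 (-0.85 ± 0.30, FDR 0.18) fell in glia.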

How the data were processed

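The authors deposited whole-number counts per gene for 12 nuclear RNA libraries. According to their methods, reads were trimmed with Trim Galore 0.4.3, aligned to mm10 with Rsubread and counted with featureCounts against GENCODE M16, without strand, so that reads over exons of more than 1 gene were dropped. Which libraries came from which of the 2 sequencers named was not given in the sources used here. Bisulfite libraries of the series were not used here. Here gene symbols, types and coordinates came from GENCODE M21 (GRCm38). Of 53379 genes, 105 had no symbol and were left out. Genes passing filterByExpr (minimum count 10, total 15) were scaled by TMM and fitted in 1 model of 4 group means with edgeR 4.0.16 (quasi-likelihood test, R 4.3.3), with Benjamini-Hochberg FDR over all 37598 genes, called below 0.25 for KA against SH (the study's threshold) and below 0.05 for neurons against glia. SE is the fold change over the root of F. The model was tested on simulated data for KA against SH in neurons, where it called most of the larger and few of the smaller imposed changes. Pools come from separate mice, and p-values without a block measure the spread between the pools of a group. That fit treats the neuron and glia libraries of a pool as independent, although they come from the same mice. With a block, p-values measure how far the differences within replicate numbers, or within pools, vary.

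Libraries of the same replicate number deviated together from their group means (correlation across genes 0.264 to 0.551 in neurons, 0.457 to 0.764 in glia), so the numbers, taken from the labels, were also fitted as a block within each cell type, and the pool as a block for neurons against glia. Alternatives used DESeq2 1.42.0, other scalings, filters and library sets. Leaving out replicate numbers or low-input libraries within the block, and replicates 2 and 3 alone, were chosen after seeing the data. Members and lists were chosen with earlier results of these data known. All members are named, with 2 most similar genes each (mean of at least 10 CPM, pseudocount 0.01 CPM), the nearest coding genes, the genes between Dlk1 and Dio3, and up to 3 called genes per list and direction by smallest p. Dio3 and Dlk1 are named as the ends of that span. Sequences come from GENCODE M21 transcripts and RefSeq tables for GRCm38.p6.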

Additional observations from a re-analysis of the deposited data

How the results depend on the processing

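The count of members called for neurons against glia over both treatments was 5 to 6 of 8 under all alternatives. Within the SH pools it fell to 3 without both low-input libraries (Rian, Mirg and Neat1), to 0 with replicates 2 and 3 alone, and to 4 to 6 when single libraries were left out. There the calls of Meg3 and Snhg11 were lost without SH neurons 3, KA glia 2, SH glia 1 or SH glia 2, and that of Snhg11 also without KA glia 1. Without the filter Meg3 and Snhg11 lost theirs too (FDR 0.126 and 0.176). Within the KA pools it fell to 0 with replicates 2 and 3 alone and to 4 to 6 without single libraries. There Meg3 and Snhg11 lost their calls without KA neurons 3, KA glia 1 or KA glia 2, Snhg11 also without KA neurons 1, and Neat1 without KA neurons 1 or 2. Meg3 and Snhg11 also lost theirs without both low-input libraries (FDR 0.122 and 0.152), in a fit of the 6 KA libraries alone (0.0546 and 0.0592) and without the filter (0.086 and 0.147). The set of replicates 2 and 3 holds fewer samples. The pool as a block changed no member's call.

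For KA against SH, the replicate block called 2 members in neurons and 2 in glia, and 2 in each without both low-input libraries, while leaving out libraries or replicate numbers gave 0 to 2 in each. The block changed no other call of a member. Pantr1 was the 1 member called in glia by DESeq2 (FDR 0.0313), by the newer edgeR method (0.23), with at least 10 counts in every library (0.137) and without SH glia 2 (0.117). For the difference between cell types the block without both low-input libraries called 1, Neat1, and leaving out libraries or replicate numbers gave 0 to 1. The edgeR fit without the block called 0 members for KA at an FDR of 0.25 and hence 0 at 0.05. With the block, an FDR of 0.05 kept Neat1 in neurons (0.00909) and Miat (0.00932) and Pantr1 (0.0332) in glia. It dropped Miat in neurons (0.2). The share held by the 8 members, neurons minus glia, was 1.59 percentage points without both low-input libraries (exact p = 0.125) and 1.42 to 1.54 without single libraries, where fewer pools cannot reach 0.05.

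Signs turned only among values that did not pass the test in either setting. The difference between KA and SH neurons in Rian became -0.01 in separate fits and without the low-input libraries, -0.019 with DESeq2 and with its size factors, and -0.009 without the filter. In glia, Meg3 became -0.015 with the replicate block, and without the low-input libraries Meg3 became -0.163, Malat1 0.899 and Neat1 -0.122, while Malat1 was 0.361 with replicates 2 and 3 alone. Neurons minus glia became -0.174 for Malat1 and -0.237 for Pantr1 with library totals alone, and -0.07 and -0.127 with at least 10 counts in every library. Without single libraries, KA against SH in neurons ran from -0.184 to 0.133 for Rian, -0.004 to 0.435 for Mirg and -0.004 to 0.91 for Malat1. In glia it ran from -0.993 to 0.563 for Meg3, -0.089 to 0.315 for Rian, -0.348 to 0.569 for Mirg, -0.71 to 0.858 for Malat1, -0.522 to 1.14 for Neat1 and -1.25 to 0.008 for Snhg11. The difference between cell types ran from 0 to 2.42 for Neat1 and -0.111 to 0.991 for Miat, and neurons minus glia from -0.12 to 0.351 for Malat1. The causes were not tested. With 3 pools a group and unblocked standard errors of up to 0.85 on the log2 scale, a difference of 1.13 (Neat1 in neurons) was not called.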
